A study of Mus musculus with 12 samples.

Results

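The vehicle pituitaries are the baseline of the study: 6 of its 12 glands, whose 6 columns were taken with every row that carries a gene name, 18497 genes in all. They came from wild-type adult male mice of the strain F1 C57BL/6Jx129S1/SvlmJ. As zygotes these animals had been microinjected with nuclease-free water, grown in KSOM medium and carried to term by pseudo-pregnant CD1 dams. The other 6 glands came from zygotes that received a let-7f-5p mimic, and they are not used here. Each library was prepared from the rRNA-depleted total RNA of pituitary tissue. The labels name neither litters nor dams, so the spread between glands may hold litter, dissection and library preparation together. A level below is a normalised count, that is, reads divided by 1 factor per library.

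The pituitary stores and releases peptide hormones. In the anterior lobe, somatotrophs make growth hormone, lactotrophs prolactin, gonadotrophs and thyrotrophs the glycoprotein hormones, and corticotrophs cut adrenocorticotropic hormone out of pro-opiomelanocortin. Melanotrophs of the intermediate lobe cut the same precursor into melanocyte-stimulating hormone, and the posterior lobe holds glia called pituicytes and the axon endings of hypothalamic neurons that release oxytocin and vasopressin. The 3 defining hormone genes were all high: Gh ranked 1, Prl ranked 2 and Pomc ranked 7 of the 18497 genes by mean level.

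Gh and Prl led the table, and the other 5 hormone genes ranked between 7 (Pomc) and 439 (Tshb). Promoters were available for 6 of the 7 hormone genes (Prl, Pomc, Cga, Lhb, Fshb, Tshb) in RefSeq tables of build GRCm38.p6, which is not the authors' build. There was no entry for Gh. The stretch from 48 to 19 bases before the start site is shown 5′ to 3′ on the gene's strand, next to that of Senp5, the gene with the smallest spread between glands. Capitals mark TATAAA on the gene's strand and, in Prl, TATTCAT, a match to the letters TATNCAT.
Prl (chr13:27057522-27057551, + strand): aTATTCATgaagatgtcaaaggttTATAAA
Pomc (chr12:3954897-3954926, + strand): gctcacccacccaaccctgcaagTATAAAa
Cga (chr4:34893731-34893760, + strand): tttgtattactctgctggTATAAAagacag
Lhb (chr7:45420898-45420927, + strand): cccccacaacccgcaggTATAAAgccaggt
Fshb (chr2:107059670-107059699, − strand): cacagggttttaagtttgTATAAAagatga
Tshb (chr3:102782733-102782762, − strand): gcagcaattcgaatgcaattaTATAAAcaa
Senp5 (chr16:32003306-32003335, − strand): tcagggttgcagttttccccatacctgccc
TATAAA, the core of the TATA box, began 40 to 20 bases before the start in all 6 hormone promoters, and in 2.22% of the 27025 RefSeq promoters. The letters TATNCAT, which resemble the core of sites bound by the pituitary factor POU1F1, were searched on both strands over 300 bases; of the 6 hormone promoters, they occurred in that of Prl, and they occurred in 9.04% of all promoters. These matches are descriptions of sequence, not of binding.

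The 6 libraries held between 26378308 and 35054068 recovered reads on named genes, and between 11 and 56 of the genes had no read in a given gland. Protein-coding genes took 93.6 ± 0.401% (SD, n = 6) of the summed normalised counts, and 12 genes encoded in the mitochondrial genome took 1.04 ± 0.116%. Gene classes came from RefSeq by symbol, which matched 92.2% of the genes. These are shares of the named rows, not of all RNA in the gland. The rows hold 52 genes classed as long non-coding RNA and lack mt-Atp8, mt-Rnr1 and mt-Rnr2. Mtrnr2l7, Gm28437 and Gm28661, whose likeness to mitochondrial genes is described below, are not among the 12. They took 1.51%, 0.248% and 0.189% of the counts.

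Growth hormone mRNA alone made up 10.2 ± 1.89% (SD, n = 6) of the summed normalised counts. The share of Gh was 11.2% in gland 1, 8.67% in gland 2, 7.79% in gland 3, 12.8% in gland 4, 9.52% in gland 5 and 11.6% in gland 6. Gland 3 was lowest and gland 4 highest. Prl, which encodes prolactin, followed at 1.68 ± 0.266%, with 1.78%, 1.47%, 1.76%, 1.98%, 1.25% and 1.82% in glands 1 to 6. Its lowest value was in gland 5, not in gland 3. The 7 hormone genes together took 12.9 ± 1.87% of the counts, from 10.8% to 15.7%.

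Pomc, the precursor of adrenocorticotropic and melanocyte-stimulating hormones, had a wider spread between glands than the other hormone genes. Its normalised count was 45286 in gland 1, 186988 in gland 2, 252306 in gland 3, 93809.9 in gland 4, 400805 in gland 5 and 50197 in gland 6. Glands 2, 3 and 5 were high and glands 1 and 6 low, with an 8.85-fold step from the lowest to the highest gland. The coefficient of variation (CV, the SD as a percentage of the mean) was 80.8% for Pomc, with a 95% chi-square interval of 50.4 to 198%. For Gh it was 20.6% (12.9 to 50.5%) and for Prl 18.5% (11.5 to 45.3%). The Pomc interval overlaps that of Lhb (24.9 to 97.9%), and the difference in spread was not tested. In bulk tissue, fewer cells of a type and less RNA per cell cannot be told apart.

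The glycoprotein hormone genes had lower means than Gh, Prl and Pomc. Cga encodes the alpha subunit common to luteinising, follicle-stimulating and thyroid-stimulating hormones, and Lhb, Fshb and Tshb encode their beta subunits. Cga measured 91828, 67278, 104774, 165379, 80665 and 114677 normalised counts in glands 1 to 6, above Pomc in glands 1, 4 and 6. Fshb averaged 22130.5 ± 7248 (SD, n = 6), Lhb 12382 ± 4942 and Tshb 7958 ± 2582. All 4 genes were highest in gland 4, and their CVs lay between 32.4% for Tshb and 39.9% for Lhb.

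**Figure D1:**
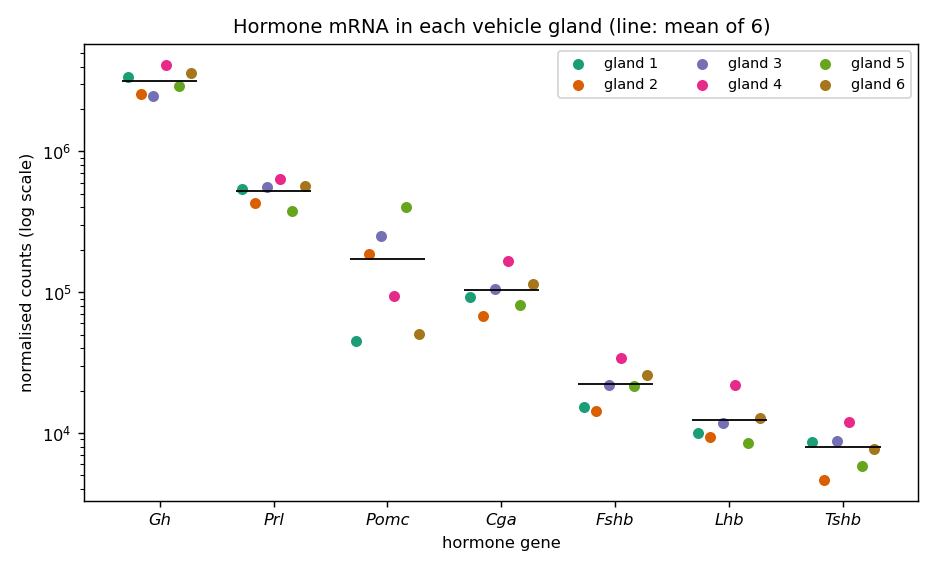
Normalised counts of the 7 hormone genes in each vehicle gland (points, log scale) with the mean of the 6 glands (line). Gh stands above all others, Pomc spreads 8.85-fold with glands 2, 3 and 5 high, and the genes other than Pomc are each highest in gland 4.

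Compared per kilobase of transcript (the mean normalised count divided by the median length of the gene's transcripts in GENCODE M21, matched by symbol for 93.0% of the genes), the order began Gh, Prl, Pomc, Cga and Nnat. Gh stood at 3677061 per kilobase, Prl at 584544, Pomc at 166407 and Cga at 160648. On this scale Pomc moved from rank 7 to rank 3 and Cga from rank 11 to rank 4, with transcript lengths of 1031 and 648 bases. Mtrnr2l7, which ranked 3 by mean count, had no matched length.

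The next shares count all genes, with Gh, Prl and Pomc among the 10 of highest mean. The 10 genes of highest mean over the glands held 17.6 ± 1.83% (SD, n = 6) of a gland's summed counts. The 100 of highest mean held 25.8 ± 1.85%, and the 1000 of highest mean held 48.9 ± 1.35%. With genes ordered within each gland, between 57 and 142 made up 25% of its counts. Between 975 and 1200 made up 50%, and between 6811 and 7126 made up 90%. The share of the 100 genes of highest mean was smallest in gland 2, at 22.9%.

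**Figure D2:**
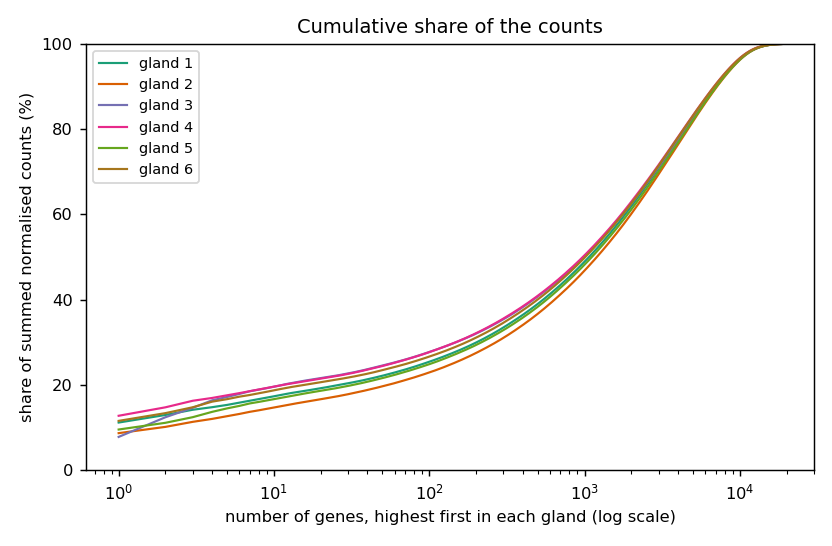
Cumulative share of the summed normalised counts (vertical axis, percent) against the number of genes counted from the highest in each gland (horizontal axis, log scale), 1 line per vehicle gland. The 6 lines start between 7.79% and 12.8%, the share of Gh, the highest gene in each of them, and run close together above 1000 genes.

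Among the other genes of highest mean, the products are known for peptide secretion, translation and genomic imprinting. Scg2 and Chgb, which encode granins of secretory granules, averaged 118017 ± 17933 and 85594 ± 11725 normalised counts (SD, n = 6). Gnas, an imprinted gene for the stimulatory G-protein alpha subunit that relays releasing-hormone signals, held 106461 ± 3685 with a CV of 3.46%, the smallest among the 10 highest genes. Peg3 and Nnat, both expressed from the paternal allele, held 71208 ± 5145 and 115543 ± 15426. Zbtb20, a transcription factor needed for lactotrophs, held 42736 ± 1829 with a CV of 4.28%.

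Some of the highest genes share sequence with others, so the authors' counting could have split their reads. Of the 31-base words of Gm28437 and Gm28661, 100% also occur in mt-Co3 and mt-Co2, and 63.9% of those of mt-Co1 occur in other genes. The figure was 51.5% for Eef1a1, an elongation factor with many pseudogenes, and 28.3% for Cga, all of it shared with Platr9. For Gh it was 0%, for Prl 0.07% and for Pomc 0.14%.

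Of the 18497 genes, 15292 (82.7%) had a mean of 50 or more, and their CV is described here; 3205 fell below. At the limit, Sapcd1 and Tbx6 were inside at 50.04 normalised counts, while B3gat1 was outside at 49.99 and Cdca7 at 49.96. The median CV was 12.4%, with quartiles of 8.41% and 18.8%. Counting error alone gives a median CV of 3.57%, and after it is taken away the median was 11.3%. For 350 genes (2.29%) the CV was at or under counting error.

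The spread was smaller at higher levels. Among the 1494 genes with a mean of 50 to 100 the median CV was 22.2%, and among the 1911 genes with a mean of 3000 to 10000 it was 8.68%. Above 10000 it was 8.91% over 287 genes, where counting error has a median of 0.86%. Of the genes with a mean of 50 or more, 5442 (35.6%) had a CV under 10% and are called steady, and 370 (2.42%) had a CV of 50% or more and are called variable. The steady share was 4.48% in the lowest of these classes and 60.9% at 3000 to 10000, and the variable share was 7.9% and 0.73%. Of the 287 genes above 10000, Lars2 and Pomc were the 2 variable ones.

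**Figure D3:**
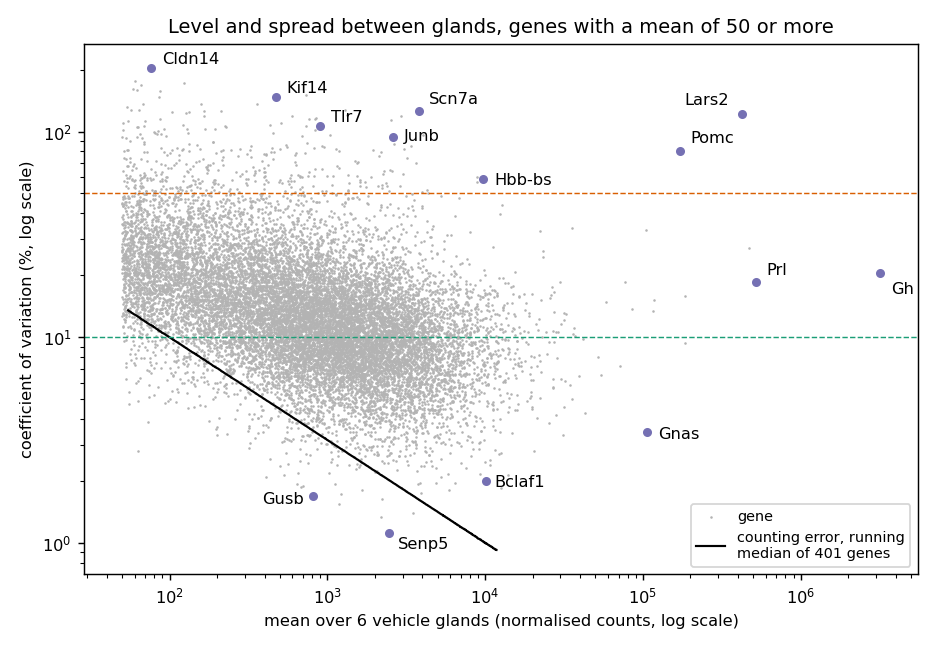
Coefficient of variation over the 6 vehicle glands against mean normalised count for the 15292 genes with a mean of 50 or more, both on log scales. The black line is counting error, and the dashed lines mark CVs of 10% and 50%; Pomc and Lars2 lie above the upper line at high level, and Senp5 and Gusb lie below counting error.

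The smallest spread was that of Senp5, which encodes a protease that removes SUMO. Its normalised count was 2456, 2502, 2429, 2489, 2454 and 2444 in glands 1 to 6, a CV of 1.12% (95% interval 0.7 to 2.75%) where counting error gives 2.02%. No gland stood apart. Next in order came Exoc2, a subunit of the exocyst that tethers secretory vesicles, at 1.34%, and Trappc8, of a tethering complex of the secretory pathway, at 1.4%. They were followed by Rchy1, a ubiquitin ligase, at 1.55%, and Chordc1, a co-chaperone of HSP90, at 1.64%. The order within this end of the list is not resolved: the intervals of 573 genes reach the CV of Senp5. All 5 CVs were under their counting error, which was 1.69% to 2.91%.

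Genes with higher counts show steadiness with less counting error. Bclaf1, an RNA-processing factor, measured 10181, 9806, 10245, 10184, 9820.3 and 10188 normalised counts in glands 1 to 6, a CV of 1.99% against a counting error of 0.999%. Glands 2 and 5 were the lowest, and the 6 values lay close together. Tnpo1, a nuclear import receptor, had a CV of 2.14%, and Csnk1a1, a casein kinase, 2.53%, each with a mean above 10000.

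Genes used as references in quantitative PCR differed widely among themselves. Of 20 such genes 19 were in the table, and 7 of them were steady, 36.8% of the list beside 35.6% of all genes. Gusb, a lysosomal glucuronidase, measured 828, 806, 804, 791, 824 and 809.9 normalised counts in glands 1 to 6, with a CV of 1.69%. Sdha, of respiratory complex II, had a CV of 3.84%, and Gapdh, a glycolytic enzyme, 4.89%. Actb, cytoplasmic actin, had 10.6%, with 32946 in gland 4 and 25125 in gland 2. Polr2a, the largest subunit of RNA polymerase II, had the widest spread of the list at 25.5%, with 4156 in gland 2 and 2229 in gland 3.

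Clock genes had about the spread of all genes. Of the 15, 5 were steady (33.3%, beside 35.6% of all genes) and 0 variable (beside 2.42%), and the median CV of 12.4% was that of all genes too. Nr1d2, a repressor of the clock loop, measured 7484, 7636, 8119, 7632, 8025 and 7975 normalised counts, a CV of 3.32%. Clock and Dbp had CVs of 3.53% and 4.49%. Per2, a core repressor, was between 1566 and 1989 in 5 glands and 784 in gland 6. Per1, which also responds quickly to stimulation, was highest in gland 4 at 3712. The labels give no hour of collection.

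Immediate early genes, which are transcribed within minutes of a stimulus, were variable. Of 12 in the list, 11 had a mean of 50 or more, and 9 of those were variable, beside 2.42% of all genes; their median CV was 61.6%. Jun and Klf6 were not variable, at 26.5% and 18.2%, and Atf3 was below the limit at 41.3. Junb measured 725 in gland 1, 1069.8 in gland 2, 1711 in gland 3, 7099.8 in gland 4, 1368 in gland 5 and 3554 in gland 6. Egr1 measured 583, 1548, 1333, 4922, 1229 and 3067 in glands 1 to 6. Both were highest in gland 4, second in gland 6 and lowest in gland 1.

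Other members followed the same order in part. Nr4a1, a nuclear receptor induced by releasing hormones, measured 561, 1448, 2396, 4236, 1279.6 and 3819.9, and Fos 759, 1439, 1773, 4129.6, 2601 and 3533. Dusp1, a phosphatase induced by stress and glucocorticoid and not a member of this list, measured 866, 961, 1573, 6663, 1648 and 4104. Egr3 did not follow: its highest gland was 5, at 118, and gland 4 held 34.3. Klf6 did not follow either, with its lowest value in gland 4, at 1505, and its highest in gland 3, at 2615. Fkbp5, the co-chaperone gene that glucocorticoid induces, was flat beside them, between 3877 and 4309 in the 6 glands with a CV of 4.14%. Of the 9 glucocorticoid-responsive genes 3 were steady (33.3%, beside 35.6% of all genes), and 1, Dusp1, was variable (beside 2.42%).

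Genes of the posterior lobe had the widest spread of any list. Of 12 genes 7 were variable, beside 2.42% of all genes, and the median CV was 74.2%, beside 12.4% over all genes. Scn7a, a sodium-sensing channel of glia that marks pituicytes, measured 91.6 in gland 1, 2884 in gland 2, 11463 in gland 3, 485 in gland 4, 7945 in gland 5 and 104 in gland 6. Col25a1, a membrane collagen, measured 312, 2048, 6924, 359, 5224 and 315. Both were highest in gland 3, then gland 5, then gland 2.

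Developmental factors of this lobe moved with them in part. Rax, a homeobox gene of the pituicyte lineage, measured 19.4, 87.2, 410.1, 20.8, 194 and 25.8, and Lhx2, another homeobox gene, 0, 68.8, 181, 19.6, 147 and 1.12. Gfap, the intermediate filament of astroglia, measured 21.3, 84.4, 359.7, 67.3, 217 and 25.8. Mt3, Cryab, Agt, Vim and Nkx2-1 were not variable, with CVs of 21.2% to 40%. Of these, Mt3, Vim and Nkx2-1 were highest in gland 3, and Cryab and Agt in gland 4. Oxt, the oxytocin precursor made in hypothalamic neurons, measured 0, 52.3, 208, 12.2, 108 and 4.48, and Avp, the vasopressin precursor, was below the limit with a mean of 20.9 and its highest value, 73.7, in gland 3. Summed over the list, the posterior lobe genes took 0.008% of the counts in the lowest gland and 0.0806% in the highest.

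Melanotroph genes of the intermediate lobe shared the order of Pomc in part. Oacyl, an acyltransferase-like gene that marks melanotrophs in mouse single-cell studies, measured 712, 5478, 5569, 1426, 10512 and 591 normalised counts in glands 1 to 6. Pax7, the factor that specifies melanotrophs, measured 145, 1135, 862, 431, 1783 and 85.1. Pcsk2, the convertase that makes melanocyte-stimulating hormone, measured 4178, 10185, 11007, 5569, 17788 and 4297. In all 3, as for Pomc, gland 5 was highest, glands 2 and 3 came next, and glands 1 and 6 were low.

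Other members of the list, which holds corticotroph and melanotroph genes, differed among themselves. Tbx19, a factor of both cell types, measured 1396, 2608, 2300.4, 1845, 2956 and 1394, with gland 5 highest, then glands 2 and 3, and with a CV of 31%. Crhr1, the receptor for corticotropin-releasing hormone, had a CV of 13.7%, and Avpr1b, the pituitary vasopressin receptor, 11.7%, with their highest values in gland 4. Pcsk1, the convertase of corticotrophs and other endocrine cells, was also highest in gland 4, at 16918, with a CV of 27.6%. Gpr165, a receptor in the list, was steady at 5.63%. Of the 9 genes 3 were variable, beside 2.42% of all genes, and the median CV was 27.6%. How much of each lobe a gland sample held is not given in the labels, and its part in the spread of Pomc was not tested.

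The globin genes were highest in gland 3. Of 6 erythrocyte genes 5 were variable, beside 2.42% of all genes, with a median CV of 60.5%, and without gland 3 the count was 1. Hbb-bs, a beta-globin, measured 7691, 3903, 19842, 12794, 6957 and 7331 in glands 1 to 6, with gland 3 highest, then gland 4. Slc4a1, the anion exchanger of red cells, was highest in gland 4, at 223, with 112 in gland 3. Alas2, the first enzyme of haem synthesis in red cells, was not variable at 13.7%. Among the genes named for the largest CVs, S100a9, a calcium-binding protein of neutrophils, measured 16.6, 9.18, 363, 67.3, 55.4 and 11.2, and its partner S100a8 had 292 in gland 3 and at most 44.1 elsewhere. Ngp and Ltf, which encode proteins of neutrophil granules, were likewise highest in gland 3, at 264 and 193. Of 12 macrophage and immune genes 1, Lyz2, was variable (beside 2.42% of all genes), with 622 in gland 3. Csf1r, C1qa, C1qb, C1qc and Aif1 were also highest in gland 3, while Cd74, H2-Ab1, H2-Aa and H2-Eb1 were highest in gland 6. Ptprc was highest in gland 1 and Cd68 in gland 5.

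**Figure D4:**
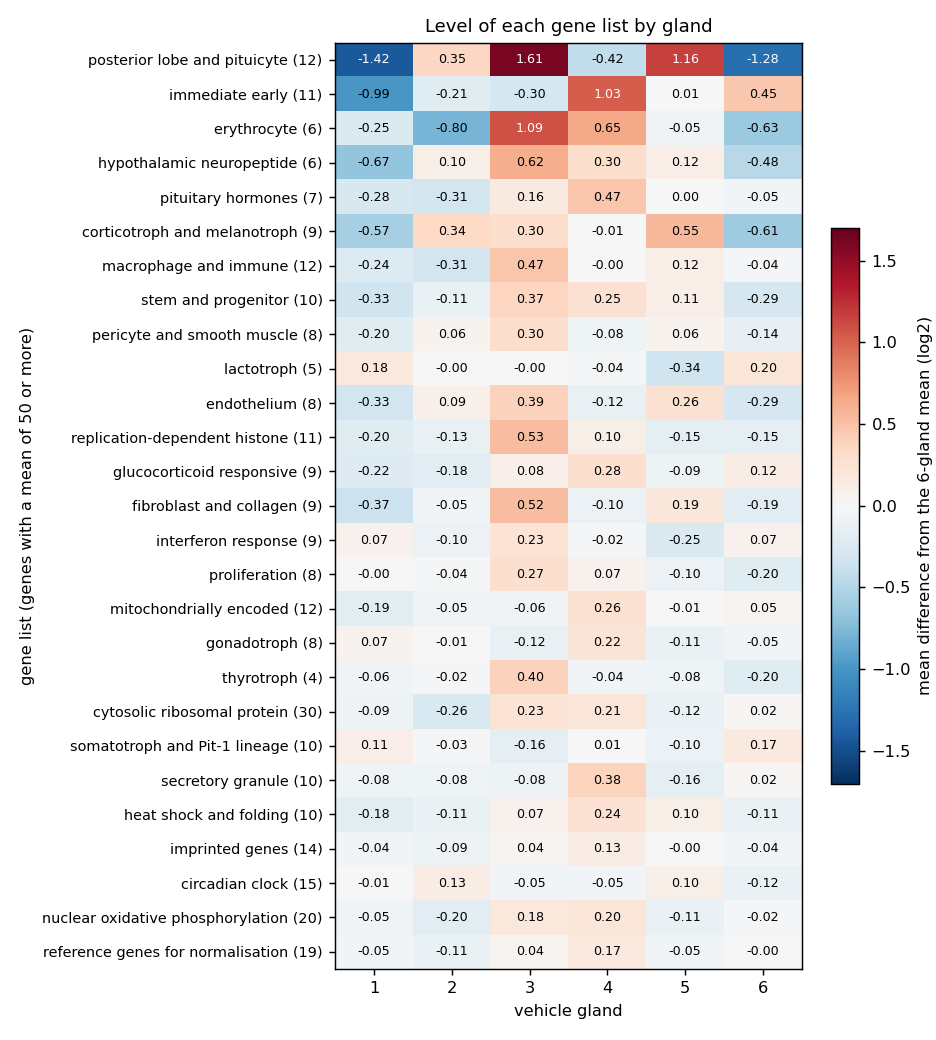
Mean log2 difference of each gene list from its mean over the 6 vehicle glands, 1 row per list and 1 column per gland, with the number of genes in brackets and rows ordered by median CV. Posterior lobe genes range from -1.42 in gland 1 to 1.61 in gland 3, immediate early genes from -0.99 in gland 1 to 1.03 in gland 4, and reference genes from -0.11 to 0.17.

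In several genes 1 gland stood apart, or a step divided the glands. Lars2, the mitochondrial leucyl-tRNA synthetase, measured 160124, 202602, 1456571, 57285, 248052 and 432029 normalised counts in glands 1 to 6, a CV of 122%. In gland 3 it took 4.62% of the counts, and in gland 4 0.177%. Mtrnr2l7, a nuclear gene named for its likeness to the mitochondrial large ribosomal RNA, was also highest in gland 3, at 698728, and between 346643 and 497133 elsewhere. Of the 31-base words of Lars2, 0.92% occur in other genes of GENCODE M21, the only sequences searched. Likeness to sequences outside that set, ribosomal RNA precursors among them, was not tested. What the reads counted for Lars2 and Mtrnr2l7 came from was not tested either.

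Tlr7, an X-linked receptor for single-stranded RNA, divided the glands 3 to 3. It measured 1738, 1731 and 1861 normalised counts in glands 1 to 3, and 19.6, 31.2 and 32.5 in glands 4 to 6, a 53.3-fold gap with no gland between. In 18 of the 18497 genes, 15 of them with a full gene name, a gap of 8-fold or more divided the glands. Values under 3 normalised counts were set to 3, and every value above the gap had to be 50 or more. Zfp987, a zinc-finger gene, was at 0 in glands 2 and 4 and between 134 and 174 in the others, and Spata31f1c was at 8.32 and 14.7 in glands 1 and 2 and between 206 and 242 elsewhere. The divisions fell between different glands in these 3 genes.

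Other steps involved a single high gland. Cldn14, a tight-junction claudin, had the largest CV, 203%, with 395 in gland 3 and at most 23.3 elsewhere. Adamts17, a secreted protease, had 2979 in gland 3 and at most 323 elsewhere, and Kif14, a mitotic kinesin, had 1879.5 in gland 5 and at most 219 elsewhere. Mki67, the usual mark of dividing cells, had a CV of 12.7% and 721 in gland 5. Dpp10, a subunit of potassium channels, measured 817, 1058, 9392, 792, 903 and 4666, and Fgf2, a growth factor, 203, 271, 3130.3, 405, 339 and 3618. Both were high in glands 3 and 6.

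**Figure D5:**
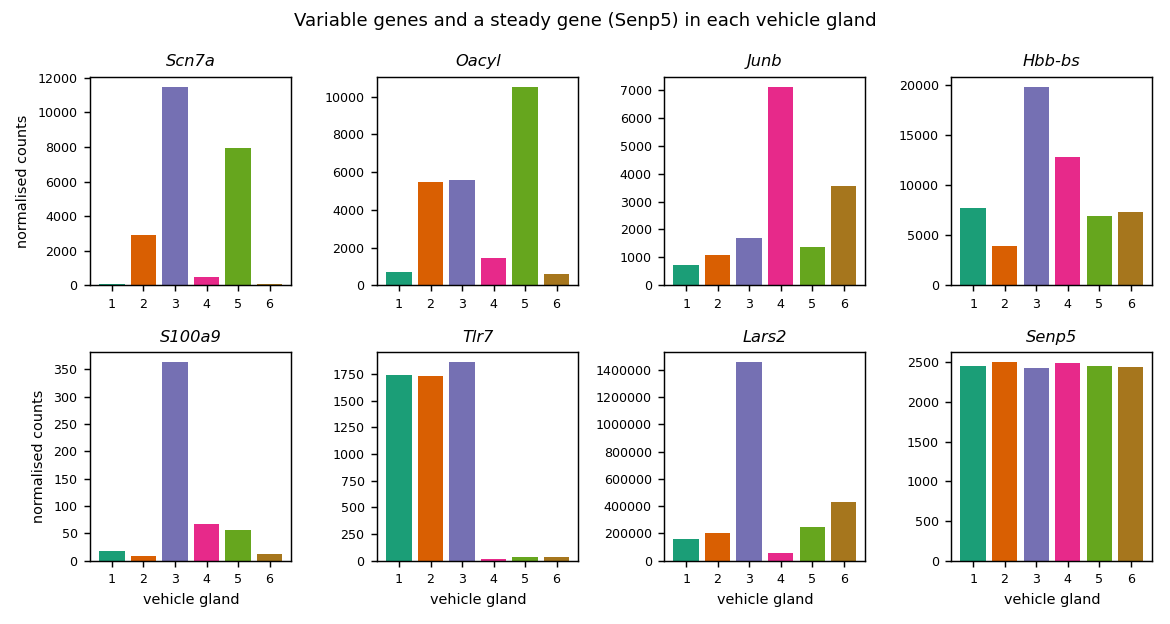
Normalised counts of 7 variable genes and the steady gene Senp5 in each vehicle gland, each panel from 0 on its own scale. Scn7a is high in glands 3, 5 and 2, Oacyl in 5, 3 and 2, Junb in 4 and 6, Hbb-bs in 3 and 4, S100a9 and Lars2 in 3 and Tlr7 in 1, 2 and 3, while Senp5 lies between 2429 and 2502.

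Seen over all 370 variable genes, the highest value fell in gland 3 for 143 (38.6%, beside 18.3% of all 15292 genes). It fell in gland 4 for 88 (23.8%, beside 24.8%), in gland 5 for 78 (21.1%, beside 12.9%) and in gland 1 for 14 (3.78%, beside 12.6%). The most frequent pattern was a value above the gene's mean in glands 3 and 5 alone, with 91 genes (24.6%), Apoe and Scn7a among them; 3.19% of all 15292 genes had that pattern. Glands 2, 3 and 5 together were above the mean in 50 genes (13.5%, beside 3.88% of all), which include Pomc, Pcsk2, Oacyl and Pax7. Glands 4 and 6 were above it in 27 genes (7.3%, beside 3.76%), which include Junb, Egr1, Dusp1 and Nr4a2. In 157 of the 370 genes at least 1 gland was below 50 normalised counts, so they passed the limit on the strength of the others. Over the 15292 genes with a mean of 50 or more, gland 4 lay farthest from the median of the 6 glands. Its median distance was 0.15 on the log2 scale, and gland 1 was nearest, at 0.08.

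In the remaining lists the variable share is read beside 2.42% of all genes, at which lists of this size hold few or none. Somatotroph and Pit-1 lineage genes had 0 of 10, with Ghrhr, the receptor for growth hormone-releasing hormone, at a CV of 11.2% and Pou1f1, the lineage factor, at 12.4%. Gonadotroph genes had 0 of 8 and thyrotroph genes 0 of 4. Akr1c14 was the 1 variable gene of 5 in the lactotroph list, at 50.4%, and Prlr, the prolactin receptor, was steady at 7.68%. Cytosolic ribosomal protein genes had 0 of 30 and nuclear oxidative phosphorylation genes 0 of 20, the latter with a median CV of 11.3%. Of the ribosomal protein genes 1 of 30 was steady (3.33%) and of the 12 mitochondrially encoded genes 0, beside 35.6% of all genes. Mitochondrially encoded genes had 0 of 12 variable, imprinted genes 0 of 14, heat shock genes 0 of 10, interferon-response genes 0 of 9, proliferation genes 0 of 8 and pericyte genes 0 of 8.

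In the other lists 1 gene each was variable, again beside 2.42% of all genes. These were Vgf, a granin-like precursor, of 10 secretory granule genes at 97.6%, with 193 in gland 4, and S100b of 10 stem and progenitor genes at 59.8%, with 141 in gland 3. Esm1, a proteoglycan of endothelium, of 8 endothelial genes had 85.3% with 2291 in gland 5. Lum, the matrix protein lumican, of 9 fibroblast and collagen genes had 68.5% with 1414 in gland 3. Oxt was the 1 of 6 genes in the hypothalamic neuropeptide list, in which the imprinted gene Nnat was also placed. H3c3 was the 1 of 11 histone genes. Of 10 abundant non-coding RNAs in the list, Snhg11 alone was in the table used here.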

How the data were processed

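Normalised counts per gene were deposited as 1 table with 1 column per gland; the 6 vehicle columns were used and the 6 mimic columns were not. The submitters' processing notes name Trimmomatic 0.39, kallisto 0.50.1, FastQC 0.12.1, MultiQC 1.28, DESeq2 1.48.2 and build GRCm39, without roles. The signal the authors deposited is read counts divided by 1 factor per library: within 0.001, 100% of the values were whole multiples of 1 step per column, which gave the recovered reads, 26378308 to 35054068 per gland. Those factors ranged from 0.817 to 1.16. A row whose name cell is blank, 0.0359 to 0.0511% of the counts, was left out.

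From these values, Python 3.11.15 with pandas 2.3.3 computed the mean, SD, rank, share of the summed counts and CV (SD with n − 1) of each gene; CVs were read for genes with a mean of 50 or more. The limits of 10% and 50% for steady and variable genes are conventions of this description. The 95% chi-square intervals of a CV assume normal values, and counting error is the Poisson CV of the recovered reads, which treats reads as independent molecules. The CV calculation was checked on simulated data with known spread. There is no group contrast and no test. Genes were matched to GENCODE M21 transcripts and to RefSeq tables by symbol, and coordinates are given for build GRCm38.p6 promoters alone. A comparison of steady and variable promoters was void, since 77.8% and 70.3% of these genes had an entry.

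Genes named are the 25 of highest mean, the 15 of highest mean per kilobase, the 12 of lowest and the 12 of highest CV, the 10 of lowest and of highest CV with a mean of 1000 or more, the hormone genes, the extremes of 28 lists, and genes with an 8-fold gap between glands. The text describes a selection of these; other list members, the genes above 10000 and Mki67 were named after their values were seen. The members, lists and limits were chosen with earlier results of these data known. Alternatives were other scalings (CPM, edgeR 4.0.16 TMM), other minimum means, a robust CV and leaving out each gland. 1 gene that the rule names is not reported here.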

Additional observations from a re-analysis of the deposited data

Results flagged for a closer look

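Of 135 values screened (the genes named in the report above, the shares of 3 hormone genes and the list levels), 15 had 1 gland apart from the others by a gap past the 95% limit of Dixon's test for 6 samples. Chance flags about 1 in 20 groups, and many of these genes were named for their spread. Other genes that the naming rule picks and the report does not describe were not screened. In 9 of the 15, gland 3 stood high.

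Gland 3 stood high for S100a9 at 363, S100a8 at 292, Ngp at 264 and Ltf at 193 normalised counts; the first 3 of these were named for their large CVs. Further genes with gland 3 apart were Lars2 at 1456571, Adamts17 at 2979, Cldn14 at 395 and the histone gene H3c3 at 165. The thyrotroph list lay 0.40 above its mean in gland 3 on the log2 scale.

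Gland 4 stood high for Lhb at 21929, for Vgf at 193 and for the secretory granule list, by 0.38 on the log2 scale. Kif14 was high in gland 5 at 1879.5. Exoc2 was lowest in gland 1 at 2126, and it remains one of the steadiest genes, with a CV of 1.34%. Per2 was lowest in gland 6 at 784.

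The table also has a row without a gene name, which was left out of all shares. It held between 0.0359% of the counts in gland 4 and 0.0511% in gland 6, above 0 in every gland, and what it collects was not tested.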

How the results depend on the processing

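Of 155 recomputed values, 147 stayed within the tolerance, which was 1.5 times for a count, 1 SD between glands for a share or the median CV, and the 95% interval for a gene's CV. These tolerances are wide: by a robust CV 7182 genes were steady. The other 8 were mostly set by the minimum mean. The median CV was 9.57% over the 6592 genes with a mean of 1000 or more, of which 3544 were steady and 58 variable. At a minimum of 10, 839 genes were variable, and at 200, 170. The number of genes read changes with the minimum, so these counts are not on the scale of 5442 and 370 among 15292. With edgeR's tagwise biological coefficient of variation, added after seeing the data, which shares spread between genes and takes counting error away, 1115 genes were steady and 191 variable. Without gland 3, 1 erythrocyte gene was variable in place of 5. The causes were not tested beyond this.

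Leaving out each gland in turn, the median CV ran from 11.2 to 12.7%, steady genes from 5296 to 6577 and variable genes from 348 to 454. The share of Gh ran from 9.74 to 10.7%, of Prl from 1.61 to 1.76%, of Pomc from 0.407 to 0.642%, of the 10 highest genes from 17.3 to 18.2% and of the 100 highest from 25.4 to 26.4%. The CV of Gh ran from 17.2 to 23%, of Prl from 13.8 to 20.7% and of Pomc from 70.4 to 95.5%. Without gland 3, 278 of the 370 genes stayed variable; with CPM scaling, 354.

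No paired analysis was possible because a single group is described and no result comes from a test. Each CV rests on 6 glands, so its upper bound is 2.45 times its value. Genes under a mean of 100 have a median counting error of 11.9%, which limits how steady they can appear.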
